A study of Mus musculus with 2 samples.

Results

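The transcripts of the AP-1 transcription factors Fos, Fosb, Fosl1, Fosl2, Jun, Junb, Jund and Atf3 were followed in ureters of mouse embryos that lack the FGF receptor Fgfr2 in cells with the Cre. Members were found by symbol, with older symbols updated through RefSeq accessions, which gave 8 genes and 9 probes among 39429 probes (30011 gene or probe names). Fosl2 had 2 probes and each other gene 1. The data were 2 two-colour Agilent arrays, each hybridised with RNA of a mutant and of a control pool of ureters dissected from NMRI embryos at E13.5, with 150 ng of total RNA as input. RNA of female pools was on array 1, with Cy5 for the mutant, and RNA of male pools on array 2, with Cy3 for the mutant, so sex and dye cannot be told apart. The mutant genotype was Pax2-cre/+;Fgfr1(fl/?);Fgfr2(fl/fl) and the control genotype Fgfr1(fl/?);Fgfr2(fl/?), where the unnamed allele may be wild type or floxed. Controls thus carried floxed alleles too, but no Cre. Mutants carried the Cre with at least 1 floxed Fgfr1 allele too, so effects of Fgfr2 and of Fgfr1 cannot be told apart. Mutant and control pools may each have mixed embryos that differ in an unnamed allele, and the labels do not give the size of a pool. The transgene is named for Pax2, a gene of the Wolffian duct lineage and early nephric tissue, while the RNA came from whole ureters, which also hold mesenchyme. In such bulk RNA, fewer cells of a type and less RNA per cell cannot be told apart.

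AP-1 is a dimer of proteins with a basic region and a leucine zipper. Fos proteins cannot pair with each other and bind DNA only with a partner such as a Jun protein, whereas Jun proteins can also pair among themselves. Fos, Fosb, Jun and Junb are immediate early genes, transcribed within minutes of growth factor signalling through ERK or JNK kinases and of cell stress, including tissue handling. FGF receptors signal through ERK. The comparison asks how these transcripts differ when Fgfr2 is deleted in mutants that also carry floxed Fgfr1.

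The whole array bears on these values in a few ways. Depending on the channel, 67.9% to 77.0% of probes exceeded background clearly, and 20923 genes entered the test. The 2 Fgfr2 probes were not lower in the mutant (log2 ratios of 0.27 and 0.06, and of 0.08 and 0.09, on arrays 1 and 2), but the labels do not place the floxed segment, so they need not report the deletion. The male array went partly against its label. Xist, an RNA made from the inactive X, had log2 levels of 8.39 in its mutant and 10 in its control channel at the brighter of 2 probes, against 12.42 in both channels of the female array. The other probe was at 7.37 and 8.61, against 11.09 and 11.05. Y-linked Ddx3y went with the labels, at 11.88 and 11.57 on the male array and 8.15 and 8.44 on the female array. The part of this in any ratio below was not tested, and each ratio is therefore given for both arrays. All ratios are log2 mutant over control, and levels are normalised log2 values of a channel, which can be compared within a probe but not between probes. Of the ureter markers, 17 of 18 epithelial and 15 of 15 mesenchymal and smooth muscle genes were measured above background.

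Most members measured lay below their controls, and none passed the test over all genes. Of the 7 members tested, 6 were lower in the mutant on both arrays, against 21.4% of all genes, and none was higher on both. Fosb and Fos were at least 1.5-fold lower on both arrays, against 0.0956% of all genes. In limma, 0 of 7 members had an adjusted p under 0.05, against 0.0287% of all genes. At an unadjusted p under 0.05 there were 4 of 7 (Fosb, Fos, Fosl2 and Jun), against 4.04% of all genes, and all 4 were lower in the mutant, against 1.43%. Fitted probe by probe, 0 of the 8 member probes tested passed the adjusted threshold in limma, against 0.0218% of all probes. The median of the 7 ratios was -0.42 (-0.42 on each array), while that of all genes was 0.0044. The members had been chosen with results of these arrays known, so these shares describe them and test nothing.

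**Figure D1:**
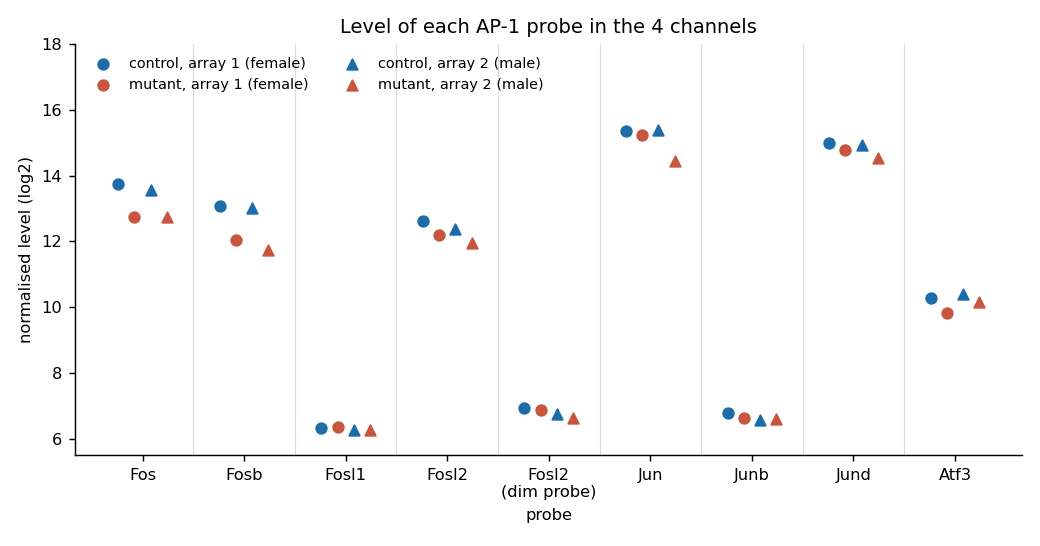
Normalised log2 level of each of the 9 probes in the control (blue) and mutant (red) channel of array 1 (circles, female pools) and array 2 (triangles, male pools), 1 point per channel. Both mutant points lie below both control points for Fos, Fosb, Jun, Jund, Atf3 and the bright Fosl2 probe, the Fosl1, Junb and dim Fosl2 probes lie near the bottom of the scale, and heights of different probes are not comparable.

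Fos, the founding member of its family and a classical readout of ERK signalling, had a level of 12.73 in mutant RNA against 13.73 in control RNA on array 1. On array 2 the levels were 12.73 and 13.57. The mutant channels of the arrays thus agreed to the second decimal, and both controls were higher. The ratios were -1.0 and -0.85, with a mean of -0.92 ± 0.11 (SD, n = 2 arrays), or 1.90-fold lower. In limma the 95% interval was -1.27 to -0.57 and the unadjusted p was 0.000384, but the adjusted p over all genes was 0.348. Its 4 spots ranged from -1.04 to -0.94 on array 1 and from -0.99 to -0.75 on array 2, so every spot lay below 0. Fos had the 5th lowest mean ratio of the 20923 genes. Its probe lies on chromosome 12 from 86817900 to 86817959 (mm9, plus strand), at position 1773 of the transcript.

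Fosb, a close relative that replaces Fos in dimers with Jun proteins, had the larger difference. Its level in mutant RNA was 12.03 on array 1 and 11.74 on array 2, against 13.07 and 13.03 in control RNA. Controls agreed closely, and the mutant of array 2 was the lowest of the 4 channels. The ratios were -1.04 and -1.29, with a mean of -1.17 ± 0.18 (SD, n = 2 arrays), or 2.24-fold lower. The limma adjusted p was 0.138, the lowest of any member, with a 95% interval of -1.53 to -0.80. Of its spots, 2 on array 1 and 3 on array 2 were free of outlier flags, and with the flagged spots kept the mean ratio was -1.19. Fosb had the 2nd lowest mean ratio of all genes tested. The probe lies on chromosome 7 from 19888168 to 19888227 (mm9, minus strand).

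Fosl2, which encodes Fra-2, a Fos-related protein with slower induction, had the closest agreement between arrays. The bright probe, at position 5726 of the transcript, read 12.21 and 11.96 in the mutant channels of arrays 1 and 2, against 12.62 and 12.38 in the control channels. Both controls lay above both mutants, and array 1 read higher than array 2 in both channels. The ratio was -0.42 on each array (95% interval -0.76 to -0.07, limma adjusted p = 1). The other probe, at position 738 of the transcript, had ratios of -0.06 and -0.14. Its median signal on array 1 was 116 in the mutant channel over a background of 64.8, so the difference between the Fosl2 probes comes with a difference in signal over background. Fosl1, which encodes Fra-1, was not well above background in any spot of any channel, so no difference could be read. Its 4 channels lay between 6.26 and 6.35. Positions on mm9, both on the plus strand, are chromosome 5 from 32460076 to 32460135 for the bright Fosl2 probe and chromosome 19 from 5455496 to 5455555 for Fosl1.

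Jun, the main partner of Fos and a target of the JNK kinases, differed between the arrays more than any other member. Its level in mutant RNA was 15.22 on array 1 and 14.45 on array 2, against 15.37 and 15.38 in control RNA. In these normalised levels the controls of the arrays were level with each other, and the mutant channel of the male array alone stood apart. Before background correction and normalization, the median signals on array 1 were 42170 for the mutant and 35520 for the control. On array 2 they were 18790 and 54950. The ratios were -0.15 and -0.94, with a mean of -0.54 ± 0.55 (SD, n = 2 arrays) and a 95% interval of -1.03 to -0.06 (limma unadjusted p = 0.0323, adjusted p = 1). A gap between the arrays as large as that of Jun, 0.78, was seen in 4.93% of all genes. With median centring in place of loess, the ratios of Jun were -0.08 and -1.32, so the size of the gap depended on the normalization. The spots did not overlap between arrays, from -0.23 to -0.03 on array 1 and from -0.97 to -0.91 among the 3 used on array 2. Whether the effect differs between sexes was not tested, since each sex had 1 array with its own dye orientation. The probe lies on chromosome 4 from 94716928 to 94716987 (mm9, minus strand).

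Jund, the Jun family member that is expressed steadily in resting cells, read 14.78 and 14.54 in the mutant channels of arrays 1 and 2, against 14.99 and 14.93 in the control channels. Both controls lay above both mutants. The ratios were -0.20 and -0.39, with a mean of -0.30 ± 0.13 (SD, n = 2 arrays), and the 95% interval of -0.65 to 0.06 included 0 (limma unadjusted p = 0.089, adjusted p = 1). The probe lies on chromosome 8 from 73224436 to 73224495 (mm9, plus strand). Junb, which can restrain the activity of Jun, had ratios of -0.14 and 0.04, the only opposite signs among the tested members, against 56.5% of all genes. With Agilent's processed signals its ratios were -0.55 and 0.044, and in the authors' deposited table -0.54 and 0.056, so the value on array 1 differed between ways of processing. Its mutant and control levels lay between 6.56 and 6.79 and overlapped. The interval of -0.41 to 0.30 leaves room for a change either way, and its probe gave a median signal of 94.1 over a background of 64.0 in the mutant channel of array 1. The Junb value is thus much less informative than that of Fos, whose signal there was 7154. The Junb probe and the dim Fosl2 probe both gave weak signals. They are printed here as the member probes nearest to the 5′ end of their transcripts:
Fosl2, position 738, chromosome 5 from 32455088 to 32455147 (mm9, plus strand): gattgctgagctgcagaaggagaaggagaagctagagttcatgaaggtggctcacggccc
Junb, position 707, chromosome 8 from 87501881 to 87501940 (mm9, minus strand): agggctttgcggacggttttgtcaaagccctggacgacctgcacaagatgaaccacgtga

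Atf3, a stress-induced factor of the same bZIP class that pairs with Jun proteins, read 9.82 in mutant RNA against 10.28 in control RNA on array 1. On array 2 the levels were 10.17 and 10.41. Both controls lay above both mutants. The ratios were -0.46 and -0.24, with a mean of -0.35 ± 0.15 (SD, n = 2 arrays) and a 95% interval of -0.71 to 0.01 (limma unadjusted p = 0.0535, adjusted p = 1). On array 1 its ratio was in the lowest 0.652% of all genes and on array 2 in the lowest 16.6%. The probe lies on chromosome 1 from 192994547 to 192994606 (mm9, minus strand).

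**Figure D2:**
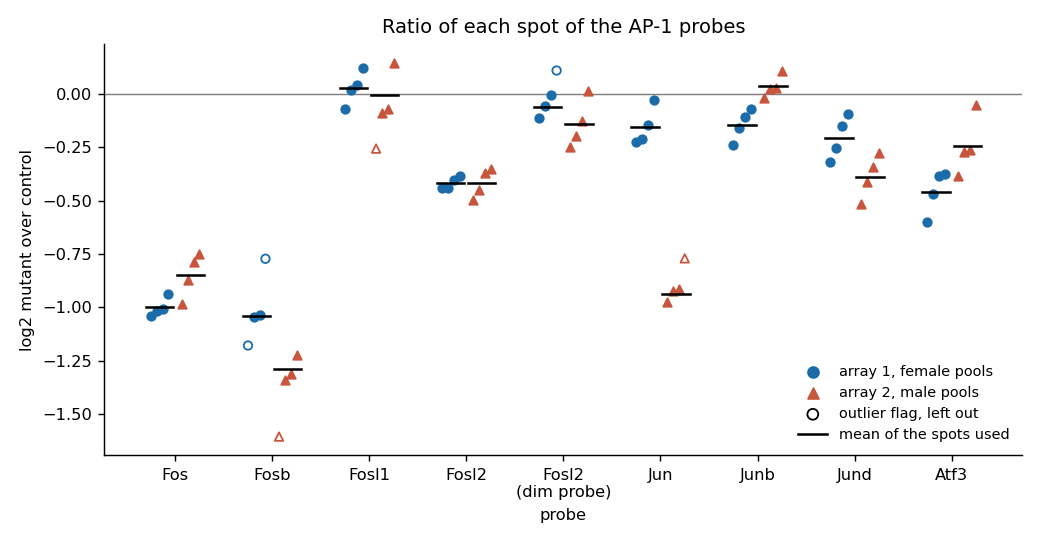
Log2 mutant over control of every spot of the 9 AP-1 probes, 4 spots per probe and array, on array 1 (blue circles, female pools) and array 2 (red triangles, male pools). Open symbols are spots with an outlier flag that were left out, and black bars are the means of the spots used: -1.0 and -0.85 for Fos, -1.04 and -1.29 for Fosb, and -0.15 and -0.94 for Jun.

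By mean ratio the tested members ran from Fosb (-1.17) and Fos (-0.92) through Jun (-0.54), Fosl2 (-0.42), Atf3 (-0.35) and Jund (-0.30) to Junb (-0.05). The limma intervals of Fosb and Fos overlapped each other, and the interval of Jun overlapped those of all other members. The interval of Fosb lay wholly below those of Fosl2, Atf3, Jund and Junb, but differences between members were not tested. The order also differed by array. Jun was 2nd lowest on array 2 and 6th on array 1, where Atf3 and Fosl2 were 3rd and 4th. Each array on its own placed Fos and Fosb within the lowest 0.5% of genes.

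**Figure D3:**
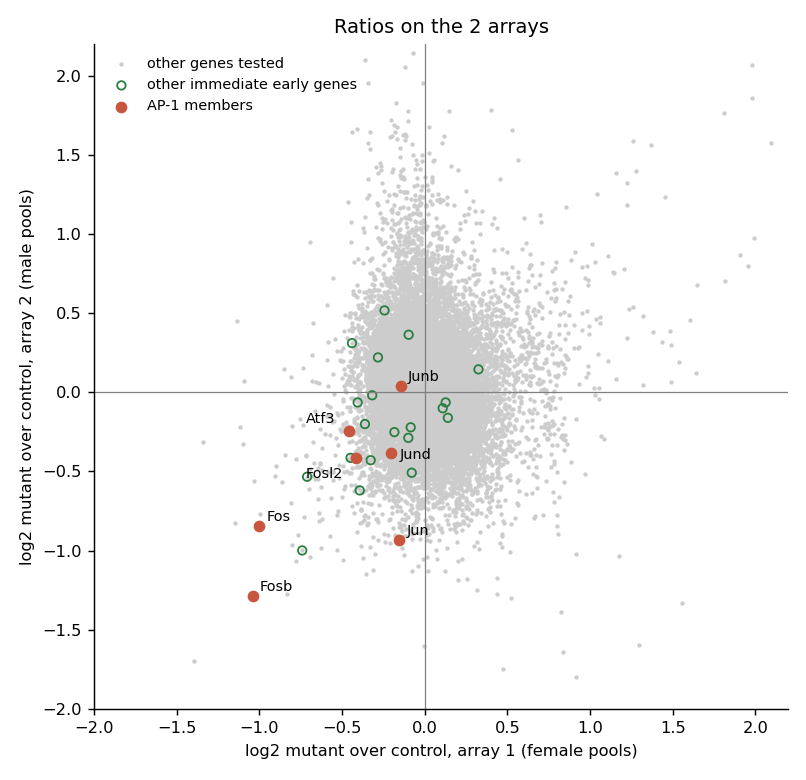
Log2 mutant over control on array 1 (horizontal axis, female pools) against array 2 (vertical axis, male pools) for the genes tested (grey), the other immediate early genes (green rings) and the 7 tested AP-1 members (red, named). Fos and Fosb lie at the lower left edge of all genes, Jun lies low on array 2 alone, and 3 genes fall outside the axes.

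Since Fos and Fosb had the lowest ratios, the sequence just before the start of these genes was read beside that of Jun, Junb and Atf3. The 150 bases before the RefSeq start (GRCm38.p6) are shown 5′ to 3′, with capitals for matches to TGACG, TGACATCA or TATAAA. Position -1 is the base before the start, and the coordinates are those of the printed stretch.
Fos, chr12:85473740-85473889, plus strand: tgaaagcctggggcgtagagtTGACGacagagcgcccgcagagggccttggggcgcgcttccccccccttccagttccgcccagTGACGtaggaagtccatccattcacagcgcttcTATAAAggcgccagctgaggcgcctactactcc
Fosb, chr7:19310046-19310195, minus strand: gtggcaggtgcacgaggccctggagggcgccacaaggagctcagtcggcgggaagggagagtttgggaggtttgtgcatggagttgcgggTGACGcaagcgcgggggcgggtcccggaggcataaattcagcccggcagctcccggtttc
Jun, chr4:95052223-95052372, minus strand: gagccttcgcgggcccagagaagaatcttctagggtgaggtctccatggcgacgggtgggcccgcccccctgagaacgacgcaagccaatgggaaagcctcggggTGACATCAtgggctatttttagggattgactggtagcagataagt
Junb, chr8:84978749-84978898, minus strand: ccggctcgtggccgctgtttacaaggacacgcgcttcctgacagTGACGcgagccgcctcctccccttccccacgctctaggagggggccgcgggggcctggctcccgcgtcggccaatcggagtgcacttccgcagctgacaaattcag
Atf3, chr1:191183334-191183483, minus strand: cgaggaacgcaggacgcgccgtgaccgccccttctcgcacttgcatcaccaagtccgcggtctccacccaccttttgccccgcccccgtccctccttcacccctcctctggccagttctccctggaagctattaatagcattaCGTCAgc

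TGACG, the left part of the cAMP response element, was searched on both strands of the 250 bases before the start. It was present in 4 of the 7 members with a promoter in the table, against 17.8% of 32851 promoters. Fos had 2 matches, at -129 to -125 and -66 to -62, Fosb 1 at -60 to -56, Junb 1 at -106 to -102 and Atf3 1 at -7 to -3, on the other strand. TGACATCA was found in Jun alone, at -45 to -38, and in 2.93% of all promoters, and TATAAA in Fos alone, at -33 to -28, and in 12.4% of all promoters. Within these 250 bases, none of the 7 held the full element TGACGTCA (1.55% of all promoters), the AP-1 site TGACTCA or TGAGTCA, which are each other's reverse complement (4.46%), or a CArG box, the site of serum response factor (1.47%). Sequence farther upstream was not searched, so such sites may lie there. TGACGTCA contains TGACG, so those searches overlap. TGACG was shared by Fos and Fosb, the lowest members, and by Junb, which had the smallest mean ratio of the tested members. TGACG and TGACATCA were searched after the sequences had been seen, and a match is only a match of letters.

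Related genes were read from lists of other bZIP factors, regulators and targets, described by counts and medians with no test. Of 24 other bZIP genes measured, 6 had both ratios below 0 and 7 both above 0, against 21.4% and 22.1% over all genes. Their median was 0.0001, and 0 passed limma over all genes (2 at an unadjusted p under 0.05). Maff, a small Maf protein that pairs with other bZIP proteins, was at -0.42 and -0.37, close to the bright Fosl2 probe. Mafk, another small Maf, was at -0.10 and -0.46, while Atf5 was at 0.58 and 0.21 and Cebpd, an acute phase factor, at 0.06 and 0.40. Of 8 genes for serum response factor, its cofactors and Ets factors, 1 was lower and 1 higher on both arrays (median -0.06). In limma 0 passed over all genes (0 at an unadjusted p under 0.05). Elk4, a ternary complex factor switched on by ERK, was at -0.14 and -0.23, and Ets1 at 0.08 and 0.43.

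The kinases that act on AP-1 were lower on both arrays more often than higher. Of 20 ERK, JNK and p38 kinase genes, 8 had both ratios below 0 and 3 both above 0, against 21.4% and 22.1% over all genes (median -0.07). The JNK gene Mapk10 was at 0.58 and 0.20, and the p38 activator Map2k6 at -0.01 and -0.55. In limma 0 kinase genes passed over all genes, and 1 had an unadjusted p under 0.05. Kinase activity was not measured by these arrays.

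Among 20 other immediate early genes measured, 12 had both ratios below 0 and 1 had both above 0, where the shares over all genes were 21.4% and 22.1%. Their median was -0.18, with medians of -0.26 and -0.18 on arrays 1 and 2. Egr1, a zinc finger factor induced by ERK through the serum response element, was at -0.74 and -1.0 (limma adjusted p = 0.394). Egr2 was at -0.71 and -0.53, Nr4a1, a nuclear receptor, at -0.39 and -0.62, and Ccn1, a matrix protein gene, at -0.45 and -0.41. In limma 0 of the 20 passed over all genes, and 5 had an unadjusted p under 0.05, all lower, against 1.43% of all genes. The 13 measured heat shock chaperones, other genes of the stress response, had 3 genes lower and 4 higher on both arrays and a median of 0.06, with 0 past limma over all genes and 0 at an unadjusted p under 0.05. Hspa5, a chaperone of the endoplasmic reticulum, was at 0.32 and 0.08, and Hspe1, of mitochondria, at -0.17 and -0.23. Hspa1a, an inducible chaperone, was at 0.17 and 0.04.

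Genes with AP-1 sites in their control regions had a median near 0. Of 30 such genes 22 were measured, of which 4 had both ratios below 0 and 3 both above 0, again beside 21.4% and 22.1%. The median was 0.02, from 0.08 on array 1 and -0.14 on array 2. The collagenase and stromelysin genes Mmp1a, Mmp3, Mmp10 and Mmp13 and the gelatinase gene Mmp9 were not above the background filter. Hmox1, a haem-degrading enzyme, was at 1.22 and 0.34, and Sprr1a, an epithelial barrier protein, at 0.42 and 0.20. The keratin genes Krt18 and Krt8, which the epithelial markers also hold, were at -0.23 and -0.52, and at -0.18 and -0.18. In limma 0 of the 22 passed over all genes, and 2 had an unadjusted p under 0.05.

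**Figure D4:**
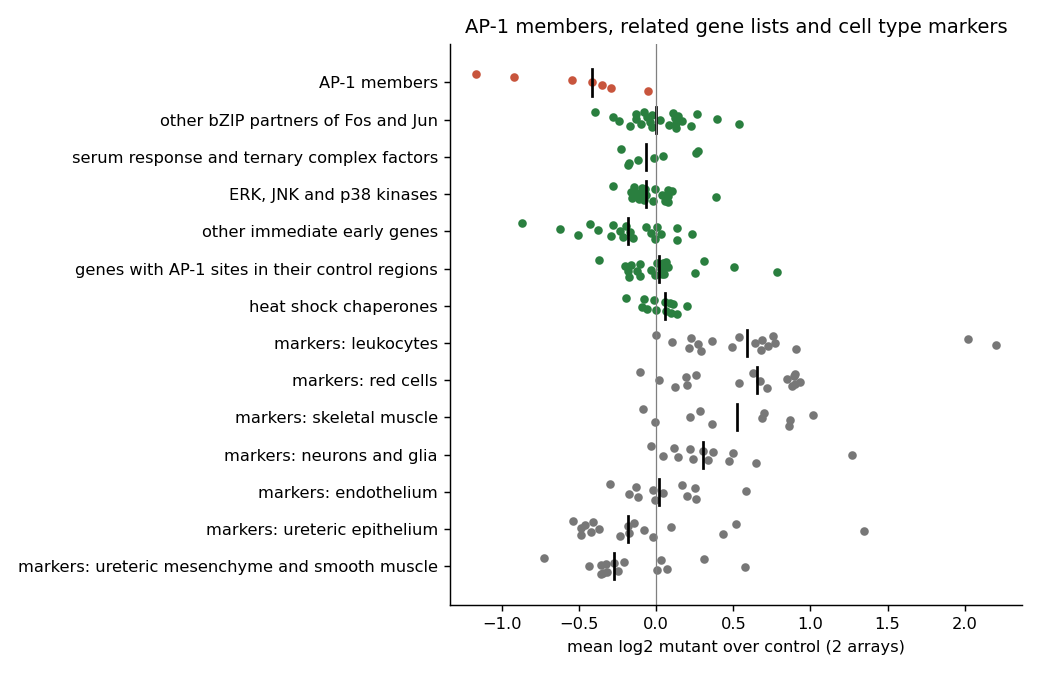
Mean log2 mutant over control of each measured gene (points) over the 2 arrays, for the 7 tested AP-1 members (red), 6 lists of related genes (green) and 7 lists of cell type markers (grey), with the list median as a black bar. The medians were -0.42 for the AP-1 members, -0.18 for the other immediate early genes, 0.06 for heat shock chaperones and 0.59 for leukocyte markers.

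The pools also differed in markers of cell types other than the ureter wall. Over all genes, 22.1% had both ratios above 0 and 21.4% both below, the shares to set beside the counts of each list here. All 18 leukocyte genes were measured, and 14 had both ratios above 0 and 0 both below (median 0.59). Their mean log2 level was 10.06 and 10.11 in the mutant channels of arrays 1 and 2, against 9.43 and 9.42 in the controls. S100a8 and S100a9, neutrophil proteins, rose by means of 2.02 and 2.21 (limma adjusted p = 0.0140 for each), calls that are lost when loess is replaced by median centring, when dim probes are kept, or when each channel is fitted on its own, since 0 genes were called there. Among 16 red cell genes, 12 had both ratios above 0 and 0 both below (median 0.65), with mean levels of 12.35 and 12.36 in mutant and 11.55 and 12.09 in control channels. Among 10 skeletal muscle genes, 8 had both above and 1 both below (median 0.52), with mean levels of 9.05 and 9.06 against 8.61 and 8.52. Neuronal and glial genes were at a median of 0.30, with mean levels of 10.16 and 10.48 against 9.72 and 10.22. Of the ureter's own cells, 9 of 17 epithelial genes had both ratios below 0 and 2 both above (median -0.18). Those above were the uroplakin genes Upk3a (1.45 and 1.24, limma adjusted p = 0.0708) and Upk1b (0.49 and 0.54). Another uroplakin gene, Upk1a, had opposite signs (0.08 and -0.37), and Upk2 was not measured above background. Among the epithelial genes with both ratios below 0 were Shh (-0.63 and -0.45) and Wnt7b (-0.35 and -0.62). The list had mean levels of 10.25 and 10.26 against 10.33 and 10.38. In 15 mesenchymal and smooth muscle genes the counts were 9 and 3 (median -0.27), with mean levels of 11.64 and 11.34 against 11.64 and 11.70. The 12 endothelial genes had a median of 0.02. Outside the S100 genes, 0 markers passed limma over all genes, while at an unadjusted p under 0.05 there were 10 red cell, 5 muscle, 3 neuronal and glial, 1 endothelial, 9 epithelial (7 of them lower) and 3 mesenchymal genes (2 of them lower), against 4.04% of all genes. Of the leukocyte genes 11 were, the S100 genes included, and all 11 were higher. By array, the epithelial medians were -0.18 and -0.35 and the mesenchymal medians -0.05 and -0.39. All were below 0 like the AP-1 median, which was -0.42 on each array, but the mesenchymal median of array 1 was close to 0. The part of cell composition in the AP-1 values was not tested.

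The genes with the pair of ratios nearest to that of Fos, by Euclidean distance over the 2 arrays, were Prr7 (distance 0.230), Sel1l3, Kcnj16, Tfap2b and Hs3st6 (0.291). Those nearest to Fosb were Hhip (0.210), Mia, Prr7, Egr1 and Nhlrc4 (0.429). Over 2 arrays such likeness says only that the values lay close together. Hhip, which binds hedgehog ligands, was at -0.83 and -1.28, Tfap2b, an AP-2 transcription factor, at -0.73 and -0.79, and Prr7, near to both, at -0.80 and -0.97. Their adjusted p in limma lay between 0.348 and 0.584.

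**Figure D5:**
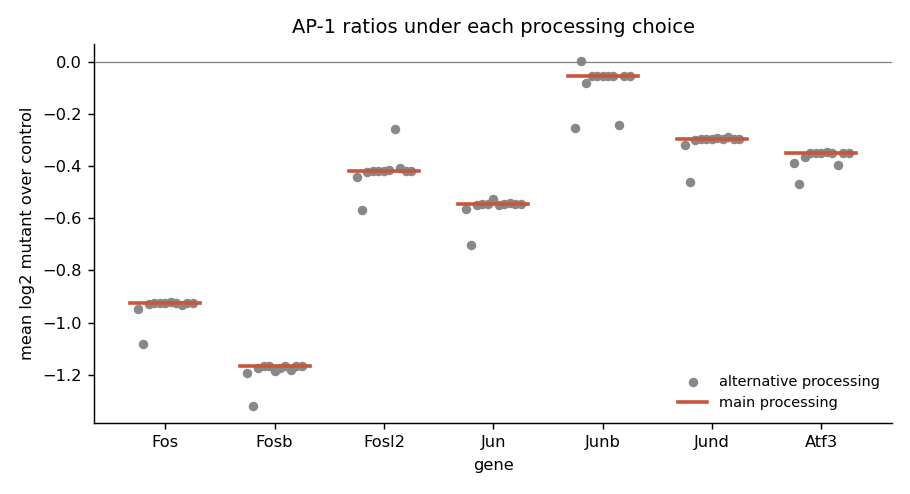
Mean log2 mutant over control of the 7 tested AP-1 members (horizontal axis) over the 2 arrays under the main processing (red bars) and each of 11 alternatives (grey points). Fosb stays between -1.32 and -1.17 and Fos between -1.08 and -0.92, Fosl2 reaches -0.26 with the mean of its probes, and Junb spans 0.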

How the data were processed

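Per the submitters' processing notes, the arrays were quantified with Agilent Feature Extraction 10.7.3.1, and per the file headers the probe design used mm9. The mean and background signals are deposited intensity values without normalization, and the processed signals are background-subtracted, LOWESS-normalized intensity values, per the file headers. The authors' deposited value table gives a score for every probe on each array, namely a signed fold with unknown centring. Its direction was mutant over control (correlation with the processed signals 0.973 and 0.991) and its column medians were 1.

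With limma 3.58.1 (R 4.3.3), signals were corrected by normexp (offset 50) and then by loess of span 0.3, in which control spots had weight 0. Outlier spots as marked by the scanner software (3.35% and 3.05%) were dropped, and a probe is the mean of its remaining spots. Array 2 was turned. The test covered the 27493 probes for which a share over 0.5 of spots exceeded background clearly in the mutant, or in the control, on both arrays, and a gene was its brightest tested probe. RefSeq accessions named 28328 probes. Levels per channel followed Aquantile normalization. Genes were tested with lmFit and eBayes (1 residual and 6.32 prior degrees of freedom), with Benjamini-Hochberg adjustment over all genes. The p-values and intervals thus rest on 2 arrays and a variance drawn largely from all genes, and do not measure the spread between embryos. Both arrays were on 1 slide. The test was tried on simulated data, but no result of that trial is given here, so it bears on none of the values above.

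The members and lists were chosen with earlier results of these data known. Named genes are all members, up to 4 genes per list with the largest mean ratio of 1 sign (called genes first), the 5 nearest patterns, Fgfr2 and Egr1. The matrix protease genes named as not measured and the uroplakin genes Upk1a and Upk2 fall outside this rule. TGACG and TGACATCA were added after the promoters had been read. Background, normalization, filter, spot, probe and channel choices, the authors' table and each array alone were tried as alternatives. Probe sequences elsewhere in the transcripts are not shown.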

Additional observations from a re-analysis of the deposited data

Results flagged for a closer look

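Junb was the only tested member whose ratio lay on opposite sides of 0, at -0.14 on the array of female pools and 0.04 on the array of male pools. Of all genes, 56.5% had opposite signs. The difference was not tested, and sex and dye orientation cannot be told apart.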

How the results depend on the processing

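Under all 10 alternatives that give a ratio on both arrays for 1 value per gene, 6 tested members were lower on both arrays, Fos and Fosb were at least 1.5-fold lower on both, and no member was called. The filter settings and the 4-channel fit reuse the main ratios of these members on each array, so there only the calls could change. The mean of a gene's probes changed Fosl2 alone, and keeping flagged spots changed Fosb and Jun alone. Agreement under these settings is therefore largely built in. The lowest adjusted p of a member, that of Fosb, ran from 0.0923 with the background filter set on both groups to 1 without it. The median ratio of the members (-0.42) was -0.44 with processed signals, -0.57 after median centring, -0.42 with an offset of 16 and with the median over spots, -0.38 without the filter on dim probes, -0.35 with the mean of a gene's probes and -0.41 in the authors' table. It was -0.42 on either array alone, with 6 members lower on array 2 and 7 on array 1, and 3 and 2 members at least 1.5-fold lower. The number of genes called over all genes (6) was 11 with processed signals, with flagged spots kept and with the median over spots, 13 with an offset of 16 and 12 with the filter set on both groups. It was 0 in limma after median centring, without the filter and with the 4 channels fitted separately (853, 1076 and 670 at an unadjusted p under 0.05). The cause was not tested. Junb (-0.05) turned to 0.0045 after median centring, was -0.25 with processed signals and -0.24 in the authors' table, and was at -0.14 on array 1 alone and 0.036 on array 2 alone. No paired analysis was possible because each array already pairs a mutant with a control pool and there is 1 group of ratios. Depth does not apply, and the number of arrays and the weak signals of Junb and Fosl1 limit precision.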
